A study of Mus musculus with 4 samples.

Results

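The stress and wound keratins Krt6a, Krt6b, Krt16 and Krt17 were followed in skin taken at E16.5 (E stands for embryonic day) from mice that overexpress the zinc finger transcription factor Ovol2. The 4 genes were chosen by name, as keratins known to be induced in wounded or hyperproliferative epidermis. Each had 1 probe set annotated to it alone on an Affymetrix whole-transcript array, and all 4 passed the filter on dim genes, among 14953 tested genes of 19938 on the array. The 2 Ovol2 BT arrays held skin RNA of embryos with a tetracycline-responsive, Flag-tagged Ovol2 transgene (TRE-Ovol2-Flag) and the tetracycline transactivator K5-tTA, expressed from the keratin 5 promoter, which is active in basal keratinocytes. The 2 control arrays held skin RNA of embryos that carried TRE-Ovol2-Flag alone or were wild type, in proportions that the labels do not give. Each array pooled 2 mice, and no group analysed here carried the transactivator alone. The labels give the strain as FVB/N for Ovol2 BT and CB6F1 for control embryos, although they also speak of littermates, so strain and transgene cannot be told apart here.

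Keratins build the intermediate filaments of epithelial cells from pairs of a type II and a type I chain. Resting basal keratinocytes use Krt5 with Krt14, and cells that move up to the spinous layer use Krt1 with Krt10. Krt6a and Krt6b, the type II chains, and Krt16 and Krt17, the type I chains, are sparse in resting epidermis between hair follicles and appear within hours of injury and in human psoriasis. Krt6a, Krt16 and Krt17 are also made in parts of the hair follicle, and Krt6a and Krt17 in the periderm, the transient outer layer of the fetal epidermis.

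Before the keratins, the arrays were checked against their labels. Ovol2 read 7799 and 7949 intensity units on the Ovol2 BT arrays, against 176 and 297 on the control arrays, a rise with a log2 fold change of 5.01 (SE 0.27, adjusted p = 0.0256 in limma). All 4 arrays are labelled female, yet the Y-linked gene Eif2s3y had log2 levels of 10.40 on Ovol2 BT replicate 1 and 10.13 on control replicate 1, against 4.72 on Ovol2 BT replicate 2 and 6.17 on control replicate 2, so replicate 1 of each genotype goes against its label. Ovol2 BT replicate 2 stood apart, with a Pearson r over the tested genes of 0.924 to 0.935 with the other arrays, which lay between 0.976 and 0.983 among themselves. Epidermal markers were bright throughout. In bulk skin, more cells that make a keratin and more of its RNA per cell cannot be told apart, and the labels do not say whether arrays of 1 genotype came from separate litters, so the p-values measure only the spread between these arrays.

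Krt6b, a type II chain of injured epidermis, rose in Ovol2 BT skin. Its intensity was 5472 and 4424 on the Ovol2 BT arrays, against 282 and 196 on the control arrays. On the log2(intensity + 16) scale, used for all levels and fold changes that follow, it averaged 12.27 ± 0.22 in Ovol2 BT skin and 7.97 ± 0.34 in control skin (SD, n = 2 arrays each). The groups were far apart, and the lower Ovol2 BT array was 15.7 times the brighter control array. The log2 fold change was 4.30 (SE 0.25, 95% confidence interval 3.68 to 4.92, limma adjusted p = 0.0256), the second largest rise of all genes tested. Krt6b was the 1 stress keratin of 4 that rose at an adjusted p under 0.05, a threshold that 0.0201% of all genes tested passed in this direction and 0.00669% in the other; 0 of 4 fell. The call was lost with cyclic loess normalisation (4.28, adjusted p = 0.0713) and with a variance prior without intensity trend (4.30, adjusted p = 0.0594).

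Krt6a, the second keratin 6 chain and the direct chromosomal neighbour of Krt6b, had a clear signal in control skin too. Its intensity was 4926 and 3636 on the Ovol2 BT arrays, against 1385 and 1106 on the control arrays. Both Ovol2 BT arrays lay above both control arrays, the lower of them at 2.63 times the brighter control. Krt6a averaged 12.05 ± 0.31 in Ovol2 BT skin and 10.29 ± 0.23 in control skin (SD, n = 2 arrays each), a log2 fold change of 1.76 (SE 0.22, 95% confidence interval 1.21 to 2.31). It did not pass over all genes (limma adjusted p = 0.247). Leaving out Ovol2 BT replicate 1 gave 1.54 (adjusted p = 0.000539), and leaving out Ovol2 BT replicate 2 gave 1.98 (adjusted p = 0.00130). Such fits take the spread between arrays from the controls alone, and 2433 and 107 genes passed in them, against 4 with all arrays.

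Krt16, the type I chain that pairs with keratin 6 in activated epidermis, was dim in control skin. Its intensity was 1826 and 1683 on the Ovol2 BT arrays, against 206 and 114 on the control arrays. The second control array lay below the level used to leave out dim genes (intensity 144, log2 level 7.32), and the values below it are the less certain ones. The 2 Ovol2 BT arrays were close to each other, at 10.79 ± 0.08, while the controls averaged 7.41 ± 0.55 (SD, n = 2 arrays each). The log2 fold change was 3.38 (SE 0.29, 95% confidence interval 2.64 to 4.12), the third largest rise of all genes tested, and it missed the threshold (limma adjusted p = 0.0952). It passed in 5 of 17 alternative fits, among them median centring of the arrays (3.44, limma adjusted p = 0.0269). Others left out control replicate 1 (3.76), Ovol2 BT replicate 1 (3.32) or Ovol2 BT replicate 2 (3.44). As said for Krt6a, fits without an Ovol2 BT array take the spread between arrays from the controls alone. With either control array left out, the spread between arrays comes from the Ovol2 BT arrays alone (SE 0.42 in both fits, against 0.29 with all arrays). The fits differ in the value, which was 2.99 without control replicate 2 and did not pass.

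Krt17, a type I chain of periderm, hair follicle and wounded epidermis, had the smallest difference of the 4. Its intensity was 8582 and 9354 on the Ovol2 BT arrays, against 6388 and 5807 on the control arrays. The groups did not overlap, but the lower Ovol2 BT array was only 1.34 times the brighter control. Krt17 averaged 13.13 ± 0.09 in Ovol2 BT skin and 12.58 ± 0.10 in control skin (SD, n = 2 arrays each), with a log2 fold change of 0.56 (SE 0.09, 95% confidence interval 0.32 to 0.79, limma adjusted p = 0.434). It passed when Ovol2 BT replicate 1 was left out (0.62, adjusted p = 0.00265), the fit in which 2433 genes passed. Whether the array compresses differences at such bright signals was not tested.

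**Figure D1:**
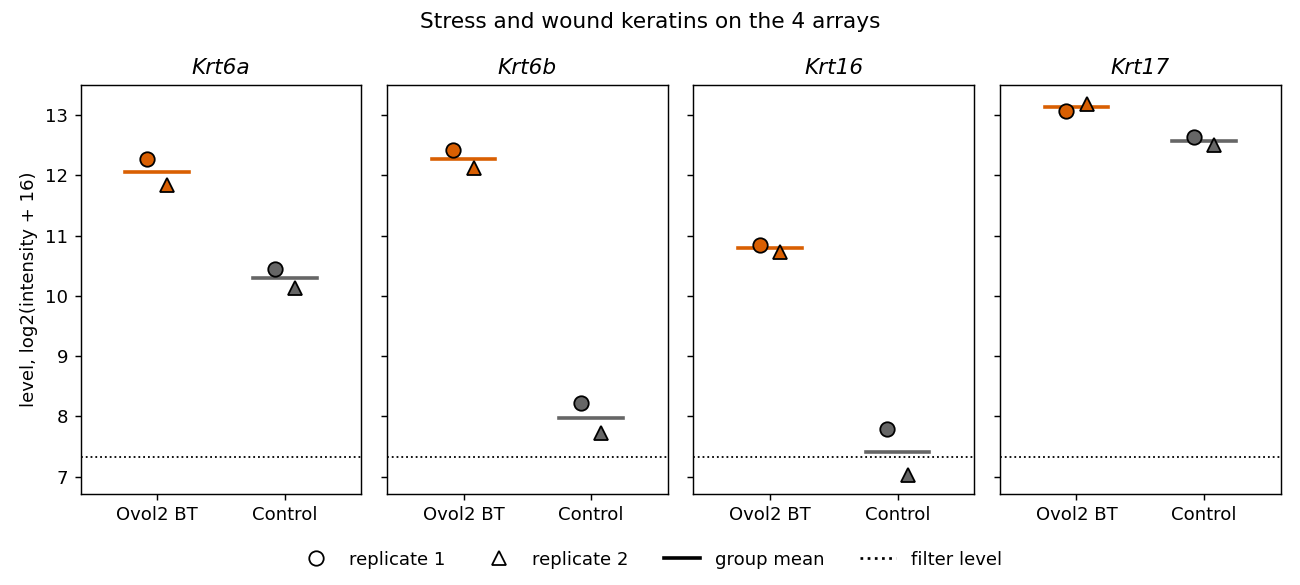
Level of each stress and wound keratin, as log2(intensity + 16), with Ovol2 BT arrays (orange) left of control arrays (grey); circles are replicate 1, triangles replicate 2, short lines group means and the dotted line the filter level of 7.32. In every panel both Ovol2 BT points lie above both control points, with the widest gap for Krt6b and the narrowest for Krt17.

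All 4 members were higher on both Ovol2 BT arrays than on either control array, which was true of 20.1% of all genes tested. All 4 had an unadjusted p under 0.05 in the positive direction, against 2.49% of all genes tested. Their median log2 fold change was 2.57, against 0.03 over all genes. The order of the fold changes was Krt6b, Krt16, Krt6a and Krt17. The intervals of the first 2 overlapped, while that of Krt6a lay below that of Krt16 and that of Krt17 below that of Krt6a; the differences between members were not tested.

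The genotypes were also compared within each replicate number, since the replicate 1 arrays carried Y-linked signal and the others did not. Xist, another gene read as a marker of sex, was not matched within these pairs. Its log2 level was 8.36 on Ovol2 BT and 7.07 on control replicate 1, and 10.80 and 13.16 on replicate 2. Ovol2 BT minus control was 4.20 for the replicate 1 arrays and 4.39 for the replicate 2 arrays in the case of Krt6b. Krt16 differed by 3.05 and 3.71, Krt6a by 1.82 and 1.70, and Krt17 by 0.42 and 0.69 in the same order. Each member was higher in Ovol2 BT skin in both pairs. This follows from the groups not overlapping, so it is no separate support.

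Krt6a and Krt6b encode nearly identical proteins, and cross-hybridisation between their probes was not tested. On the Ovol2 BT arrays the intensities were 4926 and 3636 for Krt6a and 5472 and 4424 for Krt6b. On the control arrays they were 1385 and 1106 for Krt6a and 282 and 196 for Krt6b. The log2 fold change of Krt6a minus that of Krt6b was -2.53. Against the control mean, the log2 ratio of Krt6a to Krt6b was -2.47 on Ovol2 BT replicate 1 and -2.60 on replicate 2. On the same scale it was -0.08 and 0.08 on the control arrays, values that mirror each other because the scale is centred on their mean.

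The other keratins, the structural family to which these 4 belong, had values of both signs. Of 51 other type I and II keratins on the list, 35 were tested, 13 were below the filter and 3 had no probe set of their own. Krt8, the type II chain of simple epithelia and periderm, was the 1 that rose over all genes tested (log2 fold change 2.34, SE 0.12, limma adjusted p = 0.0256), and 0 fell. Like that of Krt6b, the call of Krt8 was lost with cyclic loess (2.33, adjusted p = 0.0653) and with a variance prior without trend (2.34, adjusted p = 0.0958). At an unadjusted p under 0.05, 10 were higher and 3 lower, or 28.6% and 8.6% of those tested, beside 2.49% and 1.73% of all genes. The median over the 35 was 0.11.

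The keratin pairs can be set beside the members. The basal pair had lower values in Ovol2 BT skin, with intensities for Krt5 of 7523 and 7928 on the Ovol2 BT arrays, against 14222 and 13988 on the control arrays, and a log2 fold change of -0.87 (SE 0.06, limma adjusted p = 0.0600). Krt14 was at -0.66 (SE 0.11, adjusted p = 0.434) and Krt15, another basal type I chain, at -1.41 (SE 0.13, adjusted p = 0.102). In the spinous pair Krt1 was at -0.08 (SE 0.04) and Krt10 at -0.08 (SE 0.05). Both were brighter than Krt17 on every array, and whether the array compresses differences at such signals was not tested. In the simple epithelial pair, Krt18, the partner of Krt8, was at 1.20 (SE 0.21, adjusted p = 0.452). Further keratins with positive values that did not pass were Krt19 (0.85), Krt4 (0.80), Krt13 (0.74), Krt7 (0.63), Krt32 (0.61), Krt80 (0.51) and Krt72 (0.46). Krt4 was at 0.46 without control replicate 2, and Krt19 at 0.56.

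**Figure D2:**
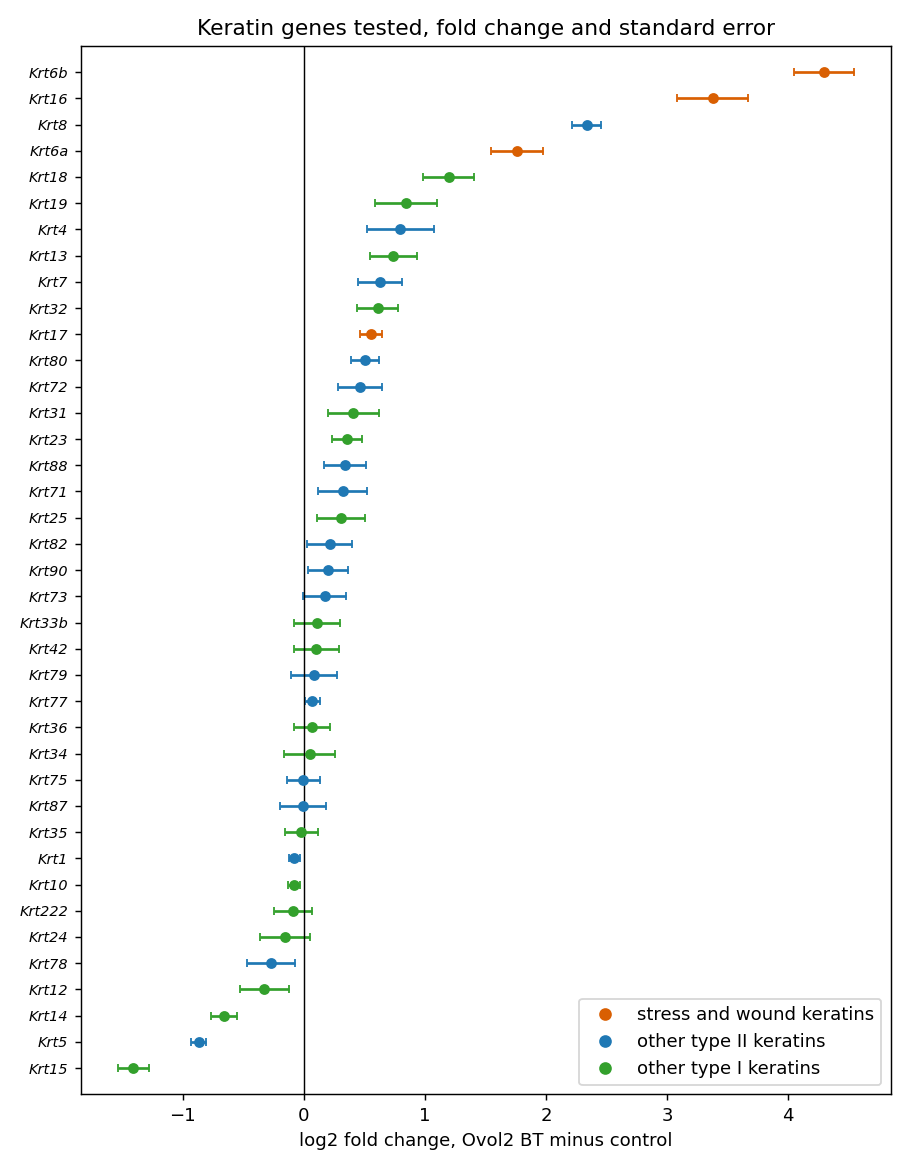
Log2 fold change, Ovol2 BT minus control, of the 39 keratins tested, with the standard error of the limma fit as bars (stress and wound keratins orange, other type II blue, other type I green). Krt6b and Krt16 head the family, Krt6a follows Krt8, Krt17 sits among keratins of moderate positive values, and the basal keratins Krt14, Krt5 and Krt15 are at the low end.

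The stress keratins lie inside the keratin gene clusters, each pair between a basal keratin with a negative value and another gene with a positive value. In RefSeq's order of protein-coding genes (mouse assembly GRCm38.p6, used for order alone since the build of the probe sets is not given in the sources used here), Krt6b and Krt6a are adjacent and Krt5 follows Krt6a. The log2 fold changes along this stretch were 4.30, 1.76 and -0.87. On the other side of Krt6b the predicted gene Gm5414 was at 0.86 (SE 0.18, adjusted p = 0.621), and beyond it Krt75, a type II keratin of the companion layer of the hair follicle, was at 0.00 (-0.0025, SE 0.14). In the type I cluster Krt14 (-0.66), Krt16 (3.38), Krt17 (0.56) and Krt42 (0.10, SE 0.18), the last a type I keratin related to Krt17, follow each other. Each stress keratin pair thus borders the basal keratin of its own type.

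**Figure D3:**
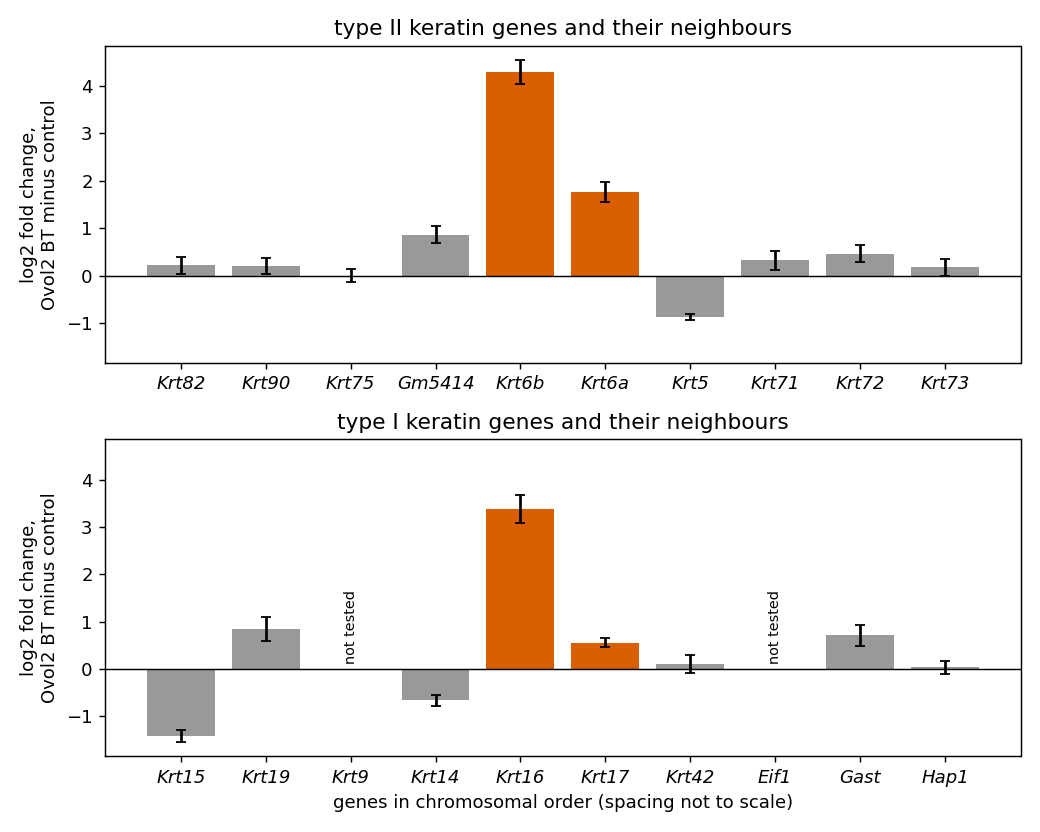
Log2 fold change, Ovol2 BT minus control, of the genes around the type II pair Krt6b and Krt6a (upper panel) and the type I pair Krt16 and Krt17 (lower panel), in chromosomal order with spacing not to scale; bars show the fold change and whiskers its standard error, with the stress keratins in orange. The orange bars stand next to the negative bars of Krt5 and Krt14, and neighbours marked "not tested" were below the filter or had no probe set of their own.

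Keratin filaments are anchored at desmosomes and bound by plakins. Of 19 such partner genes tested, 0 passed in either direction in limma, and their median was -0.07. At an unadjusted p under 0.05, 0 were higher and 2 lower (10.5%), beside 2.49% and 1.73% of all genes tested. The largest values were those of the desmosomal cadherins Dsc3 (-0.81, SE 0.23), Dsg1b (-0.63, SE 0.36) and Dsc2 (0.55, SE 0.27) and of Pof1b (-0.73, SE 0.66), an actin-binding protein of epithelia. Dsc3 was -0.48 and Dsg1b -0.11 without Ovol2 BT replicate 2, Dsc2 was 0.17 without Ovol2 BT replicate 1, and Pof1b was 0.33 without Ovol2 BT replicate 2. The scaffold Eppk1, a plakin that binds keratins at wound edges, was at 0.38 (SE 0.16), and Sfn, the 14-3-3 protein bound by keratin 17, at -0.01 (SE 0.10); both were named after their values were seen.

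Activated keratinocytes release cytokines and antimicrobial proteins along with making Krt6, Krt16 and Krt17. Of 22 such genes tested, 0 passed over all genes in limma, while 7 were higher and 1 lower at an unadjusted p under 0.05 (31.8% and 4.5% of the list), beside 2.49% and 1.73% of all genes tested. The 7 include Il1a and Il23a, whose control means lay below the filter level, so that they were tested only through their Ovol2 BT values. The median was 0.25. Il1a, the alarm cytokine stored in keratinocytes, had intensities of 629 and 391 on the Ovol2 BT arrays, against 105 and 60 on the control arrays, and a log2 fold change of 2.42 (SE 0.32, adjusted p = 0.283). Both control values lay below the filter level, so Il1a was tested only through its Ovol2 BT values, and the fold change is uncertain for lack of a clear control signal. The iron-binding protein Lcn2 was at 1.59 (SE 0.59), the defensin Defb1 at 0.98 (SE 0.37) and the cytokine Il18 at 0.95 (SE 0.31). Without Ovol2 BT replicate 1 these were 0.75, 0.58 and 0.58. The 1 gene counted as lower was another defensin, Defb4 (-0.81, SE 0.20), named after its value was seen. The alarmins S100a8 and S100a9, which accompany these keratins in human psoriasis, had means below the filter level, as had Il1b and Il6.

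Genes of migration, proteolysis and barrier repair at wound edges were divided. Of 25 tested, 0 passed over all genes in limma, and the median was 0.06. At an unadjusted p under 0.05, 5 of the 25 were higher and 4 lower, larger shares than the 2.49% and 1.73% of all genes tested. Sprr2d, a cornified envelope protein induced by stress, was at 1.63 (SE 0.18, adjusted p = 0.219) and Sprr2h, of the same family, at 0.95 (SE 0.20). Klk6, a secreted protease, had intensities of 262 and 223 on the Ovol2 BT arrays, against 134 and 89 on the control arrays; both control values lay below the filter level, so Klk6 too was tested only through its Ovol2 BT values. Serpinb3a, a protease inhibitor of stressed epithelia, was at -1.41 (SE 0.72) and at -0.38 without Ovol2 BT replicate 2, and its groups overlapped. The 4 counted as lower were Gjb6 (-0.66, SE 0.21), Stfa3 (-0.46, SE 0.12), Gjb2 (-0.40, SE 0.11) and Cd44 (-0.34, SE 0.11). With Sprr2d, Sprr2h and Klk6, the 5 higher held Sprr1a (0.42, SE 0.12) and Sprr1b (0.28, SE 0.08). These further genes were named after their values were seen.

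Signals and factors upstream of these keratins were listed next. Among 11 EGF receptor ligands and receptors, a pathway that induces keratins 6 and 16 in human keratinocytes, 0 passed in limma, and the median was -0.05. At an unadjusted p under 0.05, 1 was higher (9.1%) and 0 lower, beside 2.49% and 1.73% of all genes tested. The ligand Epgn was at 0.98 (SE 0.33) and at 0.49 without Ovol2 BT replicate 1. The values of Ereg (-0.44, SE 0.70), Btc (0.32, SE 0.48) and the ligand-releasing protease Adam17 (-0.22, SE 0.26) changed sign when 1 array was left out. Of 34 transcription factors and cofactors reported at Krt6, Krt16 or Krt17, 0 passed in limma, with a median of 0.01. At an unadjusted p under 0.05, 1 was higher and 1 lower (2.9% each), near the shares of all genes tested. The largest were the AP-2 factor Tfap2c (-0.96, SE 0.25), Sp3 (-0.90, SE 0.52), the glucocorticoid receptor Nr3c1 (-0.64, SE 0.40), which represses keratin genes of this kind in human keratinocytes, and the hedgehog effector Gli1 (-0.55, SE 0.22). Sp3 and Nr3c1 were -0.07 and -0.05 without Ovol2 BT replicate 2, and Gli1 was -0.33 without Ovol2 BT replicate 1.

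Nrf2, a factor of the oxidative stress response encoded by Nfe2l2, can induce Krt16 and Krt17. Of 20 Nrf2 response genes, 0 passed in limma, and the median was 0.00. At an unadjusted p under 0.05, 4 of the 20 were higher and 2 lower, larger shares than the 2.49% and 1.73% of all genes tested. The heme oxygenase Hmox1 was at 1.24 (SE 0.21, adjusted p = 0.434), the quinone reductase Nqo1 at 0.94 (SE 0.27) and the cystine carrier Slc7a11 at 0.77 (SE 0.37), against -1.22 (SE 0.23) for the glutathione transferase Gsta4. Nqo1 was 0.59 without Ovol2 BT replicate 2, and Slc7a11 was 0.24 without Ovol2 BT replicate 1. Of proliferation genes, which often accompany these keratins, 18 were tested, with 0 passing in limma, 0 at an unadjusted p under 0.05 and a median of -0.01. Mki67 was at -0.22 (SE 0.23), Top2a at -0.41 (SE 0.31), Ccnd1 at 0.27 (SE 0.11) and Bub1 at -1.01 (SE 0.57), the last at -0.11 without Ovol2 BT replicate 2; the sign of Top2a and of Mki67 turned in 1 fit without 1 array.

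Genes of 2 other places where these keratins are made were listed apart from keratins. Of 12 periderm genes, 0 passed in limma, and the median was 0.14. At an unadjusted p under 0.05, 2 were higher (16.7%) and 0 lower, beside 2.49% and 1.73% of all genes tested. The tight junction protein Cldn6 had intensities of 1989 and 2539 on the Ovol2 BT arrays, against 322 and 379 on the control arrays, and a log2 fold change of 2.63 (SE 0.22, adjusted p = 0.0952). Gabrp, a GABA receptor subunit, was at 0.90 (SE 0.18), Upk1b at 0.56 (SE 0.22) and Arhgap29 at -0.47 (SE 0.48), the last at 0.27 without Ovol2 BT replicate 2 and Upk1b at 0.37 without Ovol2 BT replicate 1. Of 13 genes of the outer root sheath and companion layer, 0 passed in limma, and the median was -0.03. At an unadjusted p under 0.05, 2 were higher and 2 lower (15.4% each), beside the same shares of all genes tested as above. The follicle stem cell regulator Lhx2 was at -1.03 (SE 0.20), the hedgehog ligand Shh at -0.62 (SE 0.25, and -0.34 without Ovol2 BT replicate 1), Plet1 at 0.97 (SE 0.16) and Sox9 at 0.56 (SE 0.16).

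**Figure D4:**
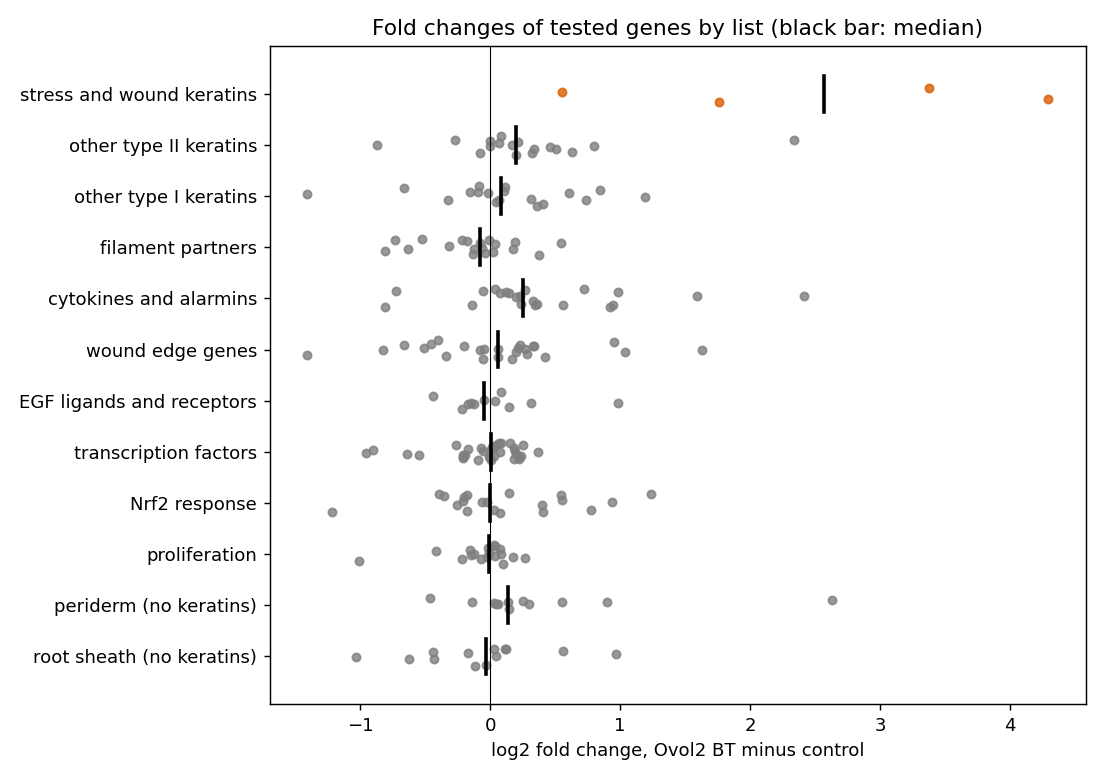
Log2 fold change, Ovol2 BT minus control, of every tested gene of 12 lists, with the stress and wound keratins in orange and black bars at the medians; points are spread vertically so that they do not overlap. The median of the 4 stress keratins is 2.57, while the medians of the other 11 lists lie between -0.07 and 0.25.

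Markers of other cell types and tissues were read beside these values. The summed intensity of 9 macrophage and myeloid markers was 10139 and 11802 on the Ovol2 BT arrays, against 9187 and 8404 on the control arrays, with 5 of the 9 higher without overlap, as were 20.1% of all genes tested, and a median log2 fold change of 0.39. Their part in the members' values was not tested. Of 8 neutrophil markers, 5 were below the filter, among them Ly6g, Mpo and Elane. The 3 tested were Camp (0.04, SE 0.18), Csf3r (0.08, SE 0.20) and Ngp (1.54, SE 0.70). Ngp, a protein of neutrophil granules, read 519 and 136 on the Ovol2 BT arrays, against 46 and 140 on the control arrays, so it was high on Ovol2 BT replicate 1 alone. Its other values lay below the filter level (intensity 144), so Ngp was tested only through that array. Lcn2 was also higher on Ovol2 BT replicate 1 (1419 and 429 on the Ovol2 BT arrays, against 187 and 329 on the control arrays). Of 7 markers of oral and oesophageal epithelium, 5 were tested, and none of these overlapped between genotypes. Over all genes tested, 20.1% were higher without overlap and 14.1% lower. Krt4 (0.80), Krt13 (0.74) and Pitx1 (0.31, SE 0.20) were higher without overlap, and Tgm3 (-1.22, SE 0.43) and Sox2 (-0.23, SE 0.22) lower. Since these differences have both signs, the summed intensity of the 5 overlapped, at 5651 and 6450 on the Ovol2 BT arrays, against 6201 and 4610 on the control arrays. Markers of skeletal muscle and of red cells varied between arrays of 1 genotype: 8 muscle markers summed to 24776 and 49378 on the Ovol2 BT arrays, against 45496 and 26045 on the control arrays, and 3 erythroid markers to 3849 and 14623, against 3263 and 6626. The 7 epidermal markers tested summed to 65791 and 63995 on the Ovol2 BT arrays, against 76999 and 76741 on the control arrays. Krt5 and Krt14 were among the 4 that were lower without overlap, as were 14.1% of all genes tested.

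Genes with the pattern most like each member were found by the Euclidean distance between log2 levels, each centred on the gene's own mean over the 4 arrays. The nearest gene to Krt6b was Krt16 (distance 0.95), and the nearest to Krt16 was Krt6b, of all genes tested. After these came Ovol2 (1.13) and the fetal plasma protein Afp (1.53) for Krt6b, and Il1a (1.04) and Cldn6 (1.08) for Krt16. Both control levels of Afp (7.26 and 7.03) lay below the filter level of 7.32. Afp, like Il1a, was thus tested only through its Ovol2 BT values. Nearest to Krt6a were the carboxypeptidase Cpa4 (0.24), Havcr1 (0.38) and Sprr2d (0.39). Cpa4 read 12.02 and 11.73 on the Ovol2 BT arrays, against 10.52 and 10.12 on the control arrays, a difference of 1.56 (SE 0.21, adjusted p = 0.292). Nearest to Krt17 were Rab33a (0.01), Krt80 (0.07) and the sodium channel subunit Scnn1g (0.07). With 4 arrays in 2 groups, such a distance mostly compares the size of the genotype difference, and Krt6a and Krt17 each had other genes nearer than any other stress keratin.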

How the data were processed

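The deposited table holds linear intensity values for 35557 probe sets on 4 arrays, with 0 further columns. The authors used Affymetrix Expression Console 1.1.1 and PLIER 2.0, per the submitters' processing notes; the normalisation between arrays and the genome build were not given in the sources. A single symbol was annotated to 21789 probe sets, several to 1621 and none to 12147, and 21698 of the first kind matched RefSeq through their Entrez number and took its symbol. Precision is limited by the number of arrays, whose median intensity lay between 266 and 303.5.

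Intensities were taken to log2(intensity + 16), which understates changes of dim genes. The probe set with the highest mean represented a gene, and genes with a mean under the 25th percentile were left out. limma 3.58.1 in R 4.3.3 (statmod 1.5.0) fitted Ovol2 BT minus control by lmFit and eBayes, with the variance prior following intensity (2 residual and 3.45 prior degrees of freedom), two-sided, with Benjamini-Hochberg adjustment over all genes tested. With 2 arrays a group, an exact permutation test could reach p = 0.333 at best, and none was used. The limma fit was tested on simulated log2 values with known fold changes, which did not cover the offset, the choice of probe set or the filter.

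Members, lists and the rule for named genes were chosen with earlier results of these data known. The rule took the members, Ovol2, the basal, spinous and simple keratin pairs and genes past the threshold. It also took the largest fold changes of each list (up to 4, or 6 for keratin lists) and the 3 nearest patterns per member. Neighbours in gene order, other cell type markers, genes below the filter and genes marked so above were added after their values were seen. The alternatives, 17 in all, were offsets of 1 and 64, quantile, median and cyclic loess normalisation, a filter at the 50th percentile or none, averaging all probe sets, a variance without trend, a robust prior, array weights, each array left out, and the replicate number as a block, also crossed.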

Additional observations from a re-analysis of the deposited data

How the results depend on the processing

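The log2 fold change of each of the 4 keratins kept its positive sign under all 17 alternatives, most of which could not have turned it. As the groups did not overlap, leaving out 1 array could not turn the sign. The filters, probe set averaging, variance settings, array weights and replicate blocks left the value unchanged. Krt6b passed the threshold in 15 of them; it missed it with cyclic loess (4.28, adjusted p = 0.0713) and with a variance without trend (4.30, adjusted p = 0.0594), and the cause was not tested. Krt16 passed in 5, among them median centring (3.44, adjusted p = 0.0269) and the replicate block (3.38, adjusted p = 0.0237). Without 1 array the value lay between 4.05 and 4.54 for Krt6b, 2.99 and 3.76 for Krt16, 1.54 and 1.98 for Krt6a and 0.49 and 0.62 for Krt17. Over all alternatives the adjusted p lay between 5.93e-05 and 0.0713 for Krt6b, 0.000252 and 0.201 for Krt16, 0.000539 and 0.424 for Krt6a and 0.00265 and 0.9999 for Krt17. The number of genes changed over all genes tested was 4; it was 7 with median centring, 0 with cyclic loess (687 at an unadjusted p under 0.05), 0 with a variance without trend (599) and 9 with the replicate block, and between 4 and 2433 without 1 array. The 2433 genes passed without Ovol2 BT replicate 1, where Ovol2 BT replicate 2, the array that stood apart, alone stood for its genotype; without that array 107 passed, and without control replicate 1, 11. The labels give both genotypes the replicate numbers 1 and 2 but no shared litter or day, and over genes the difference between replicates 1 and 2 in Ovol2 BT skin correlated with that in control skin at r = -0.172. The crossed pairing, added after seeing the data, gave 5 changed genes. Signal over background is not known for these values, which limits what can be said of Krt16 in control skin.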
